A study of Rattus norvegicus with 11 samples.

Results

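miR-204 and miR-211 are a pair of microRNAs with the same seed, measured here in rat pancreatic islets. They were taken by their exact names on the arrays, rno-miR-204 and rno-miR-211, without the star names of the opposite strands, and are 2 of the 687 miRNA names in the series and 2 of the 340 names that both of its array designs carry. The islets came from 13-week-old female Sprague Dawley rats, whose mothers ate chow and who were themselves weaned to chow at 3 weeks. HFD daughters had fathers given pellets with 43% fat, and Control daughters had fathers given chow with 9% fat, with mating at 15 weeks of the fathers' age in both groups. A first array design held 4 HFD and 4 Control arrays and a second held 1 HFD and 2 Control arrays, each from a sample with its own number in the labels (HFD 653, Control 602 and so on). Shared fathers, litters or extractions among the daughters are not given in the labels, so p-values measure only the spread between these samples.

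MicroRNAs pair through their seed, bases 2 to 8, with messenger RNAs and lower the output of those messages. In beta cells, the insulin-secreting cells of the islet, thioredoxin-interacting protein raises miR-204, and miR-204 binds the message of MafA, a transcription factor of the insulin gene, so that less insulin is made. This was worked out in INS-1, a rat beta-cell line. miR-204 is known as an intronic miRNA of Trpm3 and miR-211 as one of Trpm1, genes of related cation channels, and miR-211 is best known from human pigment cells.

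The mature sequences show how alike the members are. Both were found in RefSeq (GRCr8), as the 5p strands of Mir204 and Mir211, with the seed in capitals.
miR-204: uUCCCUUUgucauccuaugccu
miR-211: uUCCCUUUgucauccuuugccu
They have 21 of 22 bases in common, and the 1 difference is A17U, counted from the 5′ end with miR-204's base first. Of the 724 mature rat sequences in that table, these 2 alone carry the seed UCCCUUU. miR-204 lies on the plus strand at chr1:229743493-229743514 inside Trpm3, and miR-211 on the plus strand at chr1:127189353-127189374 inside Trpm1, with both host genes on the same strand as their miRNA. The precursor hairpins are shown to set the members apart, with the mature strand in capitals.
Mir204 hairpin: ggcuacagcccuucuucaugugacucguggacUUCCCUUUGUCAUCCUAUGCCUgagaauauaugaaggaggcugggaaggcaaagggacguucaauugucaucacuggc
Mir211 hairpin: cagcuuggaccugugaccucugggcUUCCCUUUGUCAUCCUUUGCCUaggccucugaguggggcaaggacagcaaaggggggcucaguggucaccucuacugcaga
Over the whole hairpins, mature strand included, they diverge more, with 77 identical positions in a global alignment of 110 and 106 bases. The arrays held 2 probes for miR-204 (10 spots each) and 3 probes for miR-211 (7, 7 and 6 spots), the same on both designs. Probe sequences are not used here, so where A17U falls against each probe is not shown.

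miR-204 was detected in the islets of all 5 HFD and all 6 Control daughters. miR-211 was detected in 2 of 5 HFD daughters and in 0 of 6 Control daughters. The 2 were HFD 653 and HFD 640. These arrays detected 13 and 20 miRNAs, miR-211 among them, that no other array of their design detected. On each of the other arrays that number was 0 to 3. How many other miRNAs were detected in HFD daughters alone was not counted. A diet pattern of miR-211 can therefore not be read from its count. Detection is the call of the scanner software for each miRNA. The islet markers were in place, with miR-375, miR-7a and miR-7b detected on all 11 arrays. Markers of neurons (miR-9, miR-124) and liver (miR-122) were detected on none. The acinar miRNA miR-216a, from the enzyme-secreting pancreas, was detected on all 11. The other acinar marker that both designs carry, miR-217, was detected on 4 of 11.

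HFD 653 stood apart from the other first-design arrays before any comparison. It detected 105 of the 340 shared miRNAs, against 138 to 157 on the other 7. The SD over its negative control spots was 12.9 intensity units, against 2.26 to 3.65 on the other 7. It also detected 13 miRNAs that no other first-design array detected, against 0 to 3 such miRNAs on each of the others. On the second design the number detected was 184 for HFD and 130 and 163 for Control. Results are therefore given with and without HFD 653.

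The level of miR-204 overlapped between the groups. Levels are log2 of the summed probe signal, brought to a common 75th percentile of the 85 miRNAs that every array detected. With 85 values, that percentile is the signal of a single miRNA on each array. On the first design miR-26b had an HFD minus Control difference of 1.5e-15, so levels there are in effect relative to miR-26b. On the first design rno-miR-204 read 7.35, 7.54, 7.48 and 8.22 in HFD 603, 607, 644 and 653, against 7.18, 6.84, 7.86 and 7.72 in Control 602, 613, 615 and 639. The lowest values belong to a pair of Control arrays and the highest to HFD 653, while the other 3 HFD arrays lie between the lower and the upper Control pair. On the second design HFD 640 read 8.70, against 8.58 and 8.54 in Control 635 and 652, so the HFD array lay above both.

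**Figure D1:**
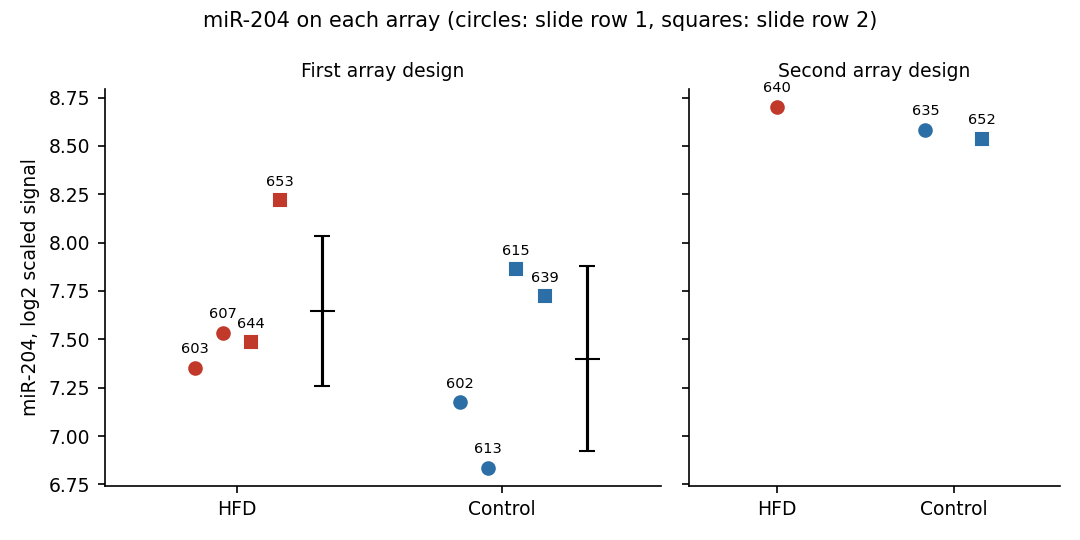
miR-204 level per array (y axis, log2 scaled signal) for HFD and Control islets, in a panel for each array design. Points are single arrays with their sample number, circles and squares are the slide rows 1 and 2, and bars on the first design are mean and SD; HFD 653 at 8.22 is the highest of the 8 first-design arrays and the groups overlap.

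The mean first-design level was 7.65 ± 0.39 in HFD and 7.40 ± 0.48 in Control (SD, n = 4 each). Over all 11 arrays, with array design as a block, the HFD minus Control difference was 0.22 ± 0.22 (SE) on the log2 scale, a 1.17-fold higher fitted level in HFD. limma gave an adjusted p of 0.987 over 152 miRNAs tested, those detected on at least 5 arrays, and an unadjusted p of 0.332. The 95% confidence interval ran from -0.26 to 0.70, which reaches from a 1.20-fold lower to a 1.63-fold higher level in HFD under this scaling. Exchanging HFD and Control labels inside each array design, an exact 2-sided permutation test over 210 splits, gave p = 0.371, where the smallest possible p is 0.0048. The difference was thus within the spread between replicates.

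Over the whole table limma called 0 of 152 miRNAs at an adjusted p of 0.05, or 0%, with 3 at an unadjusted p under 0.05. miR-204 stood at place 45 of 152 by p, and 39 miRNAs had a larger difference in either direction. The median over all 152 was 0.07, so miR-204 lay 0.16 above it. Groups that did not overlap within either array design were found for 1 of 152 miRNAs, or 0.658%, and miR-204 was not that one. A change in the number of beta cells and a change in miRNA per cell cannot be told apart in such whole-islet RNA.

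The first design alone gave miR-204 a difference of 0.25 (2-sided exact permutation p = 0.514, smallest possible p 0.0286), and the second gave 0.14 with no test on its 3 arrays. The difference between those values, tested as an interaction with limma, was -0.11 ± 0.53 (SE, adjusted p = 0.996). Without HFD 653 the fitted difference was 0.08, and without Control 613 it was also 0.08. On the first design the HFD mean without HFD 653 was 7.46, against 7.40 in Control, a difference of 0.06.

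On the first design miR-204 read mostly higher in row 2 of the slide than in row 1, though the rows overlapped. Each slide row held 2 HFD and 2 Control arrays of the first design. Arrays of row 1 read 6.84 to 7.54 and arrays of row 2 read 7.48 to 8.22. Within row 1 both HFD arrays lay above both Control arrays, with means of 7.44 in HFD and 7.01 in Control and a difference of 0.44. Within row 2 the HFD arrays were the highest and the lowest, with means of 7.85 in HFD and 7.79 in Control and a difference of 0.06. Fitted with the row of each slide as a block, an alternative chosen after the data were seen, the difference was 0.22 ± 0.16 (SE) and limma's adjusted p was 0.990. Control 652 is alone in its row of the second slide and adds nothing to that fit. On that slide row 1 read 8.58 in Control 635 and 8.70 in HFD 640, both above the 8.54 of Control 652 in row 2. The part of slide position in these levels was not tested.

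Before scaling, the summed miR-204 signals of the first design lay in 2 narrow bands. Those of HFD 603, Control 602 and Control 613 were between 104.7 and 108.1 intensity units. The other 5 arrays, 3 of them HFD and 2 Control, were between 181.9 and 191.2. The highest was again HFD 653, at 191.2 against 187.0 in the highest Control array. Its 75th percentile was 653.1, close to the 652.2 of HFD 603, the lowest of the 8, so scaling raised those arrays the most.

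The 2 probes of miR-204 are given apart, each on its own scale. The first probe, A_26_P00001463, had all of its spots well above background on all 11 arrays. Its mean signal was 90.5, 162.9, 161.8 and 147.1 in HFD 603, 607, 644 and 653, against 95.6, 98.1, 164.8 and 170.6 in Control 602, 613, 615 and 639. By this probe HFD 653 was not the highest array before scaling and lay inside the Control range.

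The second probe, A_26_P00001464, read 14.1, 19.0, 23.2 and 44.2 in those HFD arrays, against 12.3, 9.99, 17.8 and 16.4 in those Control arrays. Only 23 of its 40 first-design HFD spots and 17 of its 40 Control spots were well above background, with 2 of 10 on HFD 653. On HFD 653 it gave 23.1% of the summed miR-204 signal, against 8.77% to 13.5% on the other 7 first-design arrays. On the second design it gave 37.2% in HFD and 35.7% to 37.4% in Control, with every spot well above background. The same pair of probes therefore summed in different proportions on the 2 designs. A block for array design takes up a shift in mean level between designs. It does not take up the weight of each probe in the diet difference or the higher share on HFD 653.

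Taken alone, the first probe differed by 0.15 and the second by 0.64 in the limma fit over all arrays (adjusted p = 0.987 for both). On the first design the first probe averaged 7.41 in HFD and 7.25 in Control, a difference of 0.16, or 0.02 without HFD 653. The second probe averaged 4.83 in HFD and 4.04 in Control, a difference of 0.80, or 0.37 without HFD 653. On the second design, with HFD 640 alone against 2 Control arrays, the differences were 0.12 and 0.17.

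**Figure D2:**
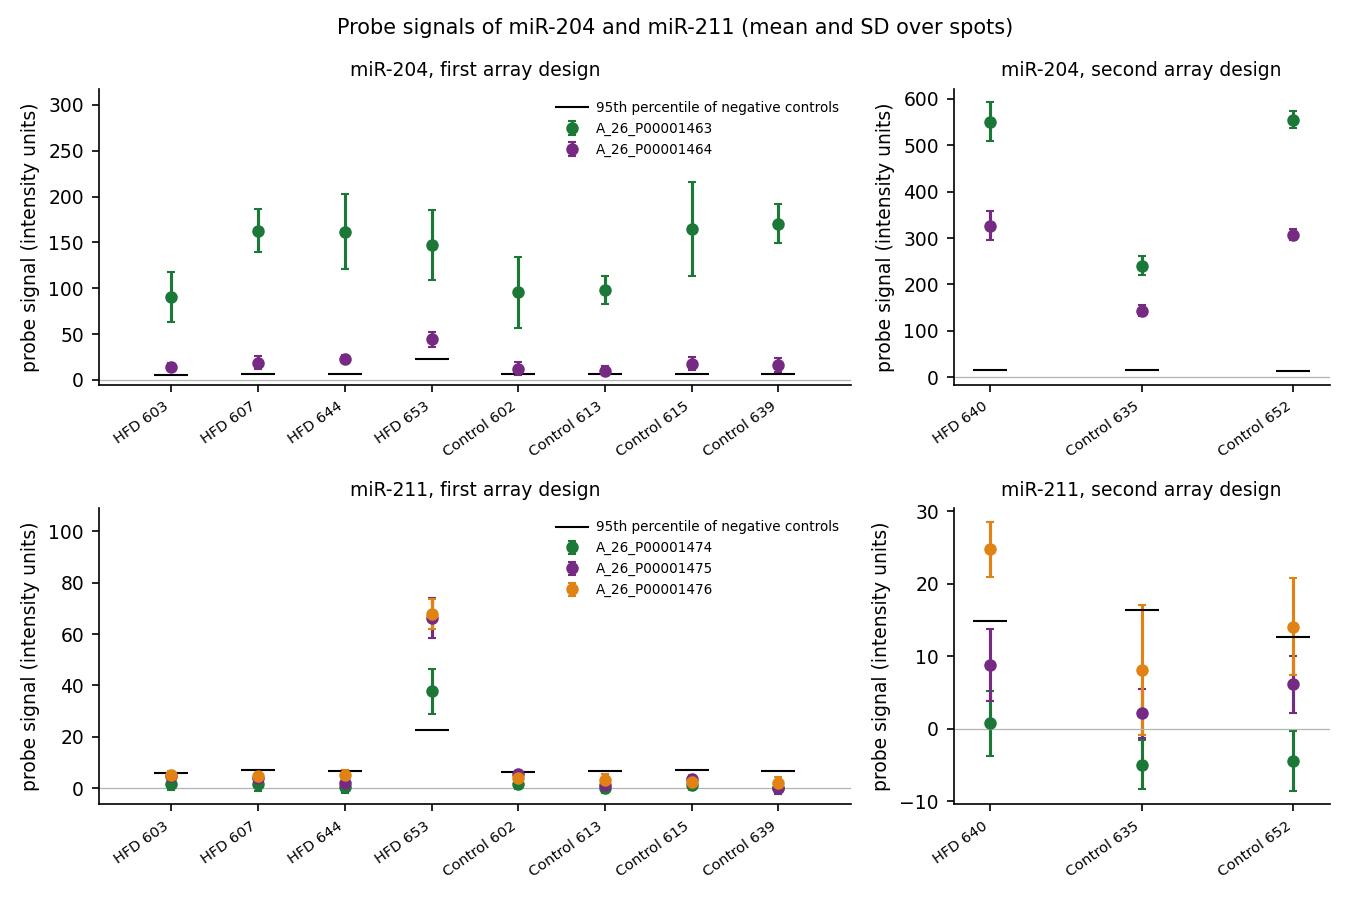
Mean probe signal with SD over spots (y axis, intensity units, not scaled between arrays) for the 2 probes of miR-204 (top) and the 3 of miR-211 (bottom), with HFD arrays left of Control arrays and the first design left of the second. Dashes mark the 95th percentile of negative control spots on each array; the 3 miR-211 probes clear it on HFD 653, where they read 37.7, 66.2 and 67.9, and lie below it on the other first-design arrays.

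Relative to their mean, spots of the first miR-204 probe on one array spread less on the second design. For the first miR-204 probe the coefficient of variation over spots was 14.3% to 30.6% in HFD and 12.2% to 40.3% in Control on the first design. On the second it was 7.47% in HFD and 3.20% to 8.26% in Control. In intensity units the second miR-204 probe, brighter there, spread more on the second design. Its SD over spots was 31.1 in HFD and 11.6 and 11.8 in Control. On the first design that SD was 3.67 to 8.02 in HFD and 4.81 to 7.93 in Control. The means of that probe there were 14.1 to 44.2 in HFD and 9.99 to 17.8 in Control. As a percentage of the mean, its second-design spread was 9.56% in HFD and 3.85% to 8.05% in Control. No such percentage is given for it on the first design, where not all of its spots were well above background. The software's own error of the miR-204 total was 9.32% to 13.0% of the signal in HFD and 9.56% to 10.2% in Control on the first design.

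miR-211 gave no usable level on most arrays. The scaled signal of rno-miR-211 on the first design was 18.3, 10.4, 7.59 and 267.8 in HFD 603, 607, 644 and 653, against 14.6, 4.90, 8.60 and 2.52 in Control 602, 613, 615 and 639. On the second design it was 16.2 in HFD 640, against 5.17 and 6.73 in Control 635 and 652. HFD 653 alone was far above the rest, and the others, 2.52 to 18.3, lie around the floor of 10.3. In the log2 values, signals under that floor were given no order. miR-211 did not pass the filter of 5 arrays and was not tested among the 152.

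On HFD 653 all 3 miR-211 probes lay above the negative controls. Their means were 37.7, 66.2 and 67.9 intensity units, with SDs over spots of 8.82, 7.78 and 5.80, and 16 of 17 spots without an outlier flag exceeded the 95th percentile of negative controls, 22.6. On the other 7 first-design arrays the means were 0.019 to 5.43 units, and 0 to 4 of the 19 or 20 spots used exceeded that percentile on each. The software called 7 of the 20 spots of HFD 653 well above background, and 0 elsewhere. That array is also the one with the wide negative controls, the 13 miRNAs detected nowhere else on its slide and the highest first-design signal of the second miR-204 probe, and the part of those in the miR-211 signal was not tested.

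In HFD 640 the 3 miR-211 probes read 0.704, 8.79 and 24.7 units before scaling. The last of them, A_26_P00001476, read 8.04 and 14.0 in Control 635 and 652, and 0 of the 20 miR-211 spots of HFD 640 were well above background. Scaling multiplied signals by 0.475 on HFD 640, against 0.999 and 0.431 on Control 635 and 652. The 95th percentile of negative controls was 14.8 on HFD 640, against 16.4 and 12.6 on Control 635 and 652. The mean of 14.0 in Control 652 thus lay above that percentile too. HFD 640 detected 20 shared miRNAs that the Control arrays of its slide did not.

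No fold is given for miR-211, since it was not detected on 3 of 5 HFD arrays and 6 of 6 Control arrays. With the floor in place its log2 mean was 4.60 in HFD (n = 5, with 1 array at the floor) and 3.44 in Control (n = 6, with 5 arrays at the floor). The same floored values enter the tests. When miR-211 was added to the tested set, its fitted difference was 1.11 ± 0.76 (SE), with a limma adjusted p of 0.987. The exact permutation within array design, 2-sided, gave p = 0.0905. Without HFD 653 the fitted difference was 0.30.

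The 2 members were not shown to move together. Over the 8 first-design arrays the scaled signals had Pearson's r = 0.75 (2-sided exact permutation p = 0.0847) and Spearman's rho = 0.19 (2-sided exact permutation p = 0.665). These signals were taken without the floor, so rho also ranks miR-211 signals that lie under it. With no scaling r was 0.33, and with the 75th percentile taken from all shared miRNAs it was 0.13, with a rho of -0.17 in both. This was the 1 relation between measures that was tested. The relation rests on HFD 653 and on the scaling. Without that array r was -0.22, and without the 2 arrays farthest from the median of miR-204, HFD 653 and Control 613, it was -0.70. On 7 of the 8 arrays miR-211 was not detected, and cross-hybridisation between the members was not tested.

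The opposite strands differed as well. miR-204* was detected on 0 of 5 HFD and 0 of 6 Control arrays. miR-211*, a name of the second design only, was detected on all 3 of its arrays. Its unscaled software total was 44.3 intensity units in HFD 640, against 57.0 and 15.8 in Control 635 and 652. The scaling factors of these arrays were 0.475, 0.999 and 0.431 in that order, so the totals cannot be compared directly. Of the 20 miR-211* spots per array, 13 were well above background in HFD 640, against 12 and 1 in Control 635 and 652. miR-211 itself was not detected in those Control arrays.

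The sign of the miR-204 difference depended on how arrays were scaled. It was -0.0034 with the 75th percentile taken from all shared miRNAs, 0.07 with a median over the commonly detected ones and 0.29 with no scaling. Those settings moved the median of all 152 miRNAs to -0.15, -0.08 and 0.16, each of them below the value of miR-204 in that setting. A summary after the manner of RMA gave 0.05, the log2 values in the authors' deposited table of each design gave 0.25, and keeping outlier spots 0.31. Adjusted p in limma ran from 0.883 to 1 over the result and its 30 alternatives.

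**Figure D3:**
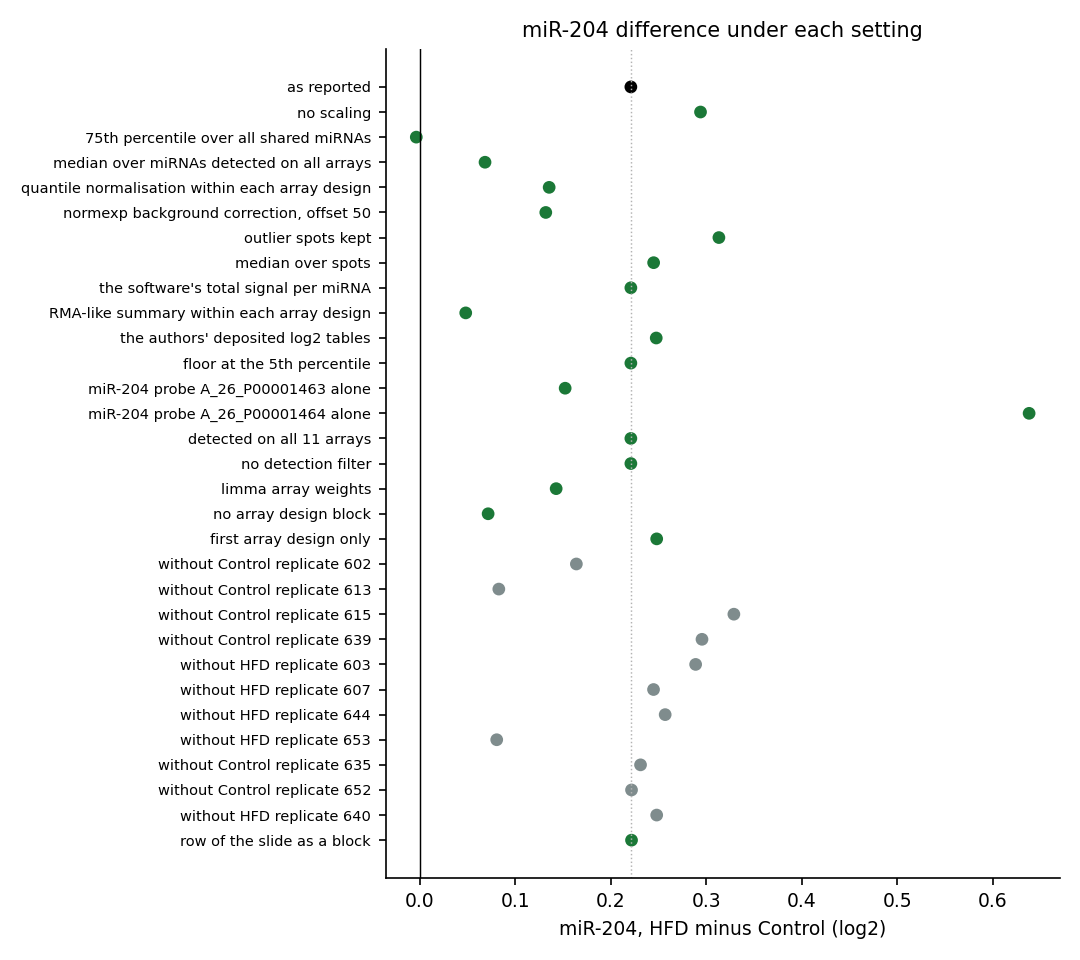
HFD minus Control difference of miR-204 (x axis, log2) under the reported setting (black), processing alternatives (green) and with single arrays left out (grey). The dotted line marks 0.22, the reported value; scaling over all shared miRNAs gives -0.0034 and the second probe alone 0.64.

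Other miRNAs of insulin production and beta-cell function did not differ detectably either. Of 23 such miRNAs listed, 22 are shared names and 17 were tested. limma called 0 of the 17, against 0% of all 152. Their median difference was 0.05, against 0.07 over all miRNAs tested, and 11 were positive and 6 negative. Under scaling over all shared miRNAs the split was 1 above and 16 below, so neither direction can be read from these counts.

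The highest of the list were miR-34a, which p53 induces, at 0.23 ± 0.34, and miR-182, a member of the sensory and endocrine miR-183 cluster, at 0.14 ± 0.21 (SE). The lowest were miR-148b-3p at -0.51 ± 0.49 and miR-96, from the same cluster as miR-182, at -0.10 ± 0.19 (SE). Each had a limma adjusted p of 0.987. miR-375, the most studied islet miRNA and a brake on insulin secretion, differed by -0.03 ± 0.12 (SE), with levels of 12.05 ± 0.16 in HFD and 12.09 ± 0.24 in Control on the first design (SD, n = 4 each). The standard error of miR-204, 0.22, was wider than that of miR-375 and than the median of 0.18 over all miRNAs tested.

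**Figure D4:**
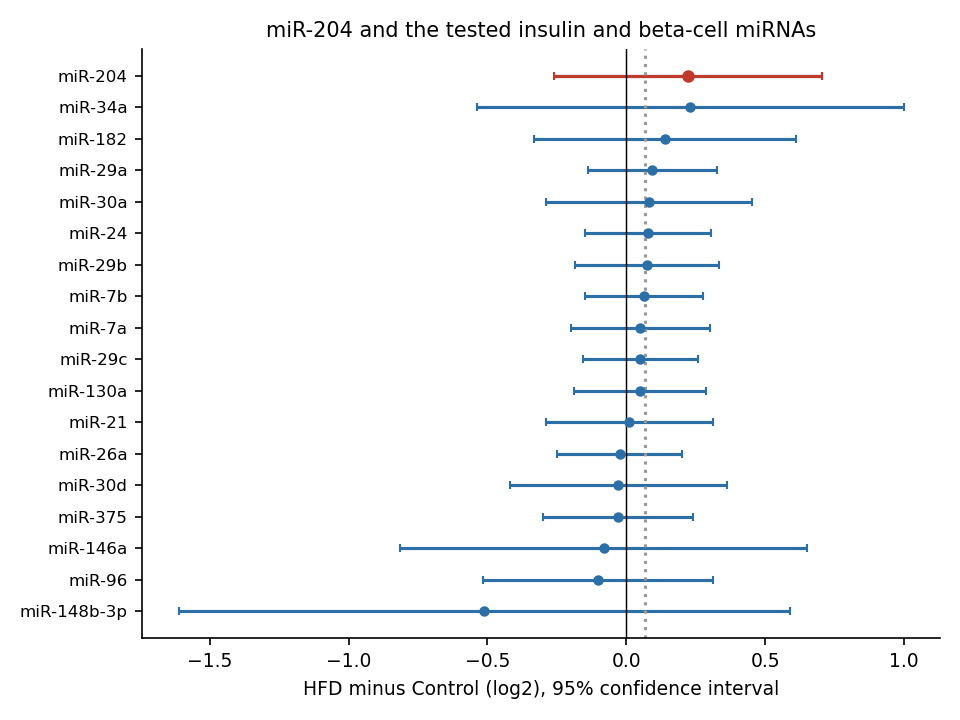
HFD minus Control differences (x axis, log2) with 95% confidence intervals from limma for miR-204 (top, red) and the 17 tested miRNAs of the insulin and beta-cell list (blue). The dotted line is the median of all 152 miRNAs at 0.07; the interval of miR-204 runs from -0.26 to 0.70, and all 18 intervals include 0.

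The miRNAs whose level varied most like miR-204 were found over the 8 first-design arrays after each group's mean was subtracted. The highest Pearson's r among 150 miRNAs belonged to miR-331 (0.93), miR-125a-5p (0.90), let-7i (0.88), miR-598-3p (0.88) and miR-183 (0.85). The same 5 were the first 5 without HFD 653, at 0.88, 0.83, 0.80, 0.82 and 0.80. miR-331 read 6.52 to 7.47 in HFD and 6.29 to 7.05 in Control. The lowest r belonged to miR-152 (-0.87), miR-494 (-0.85) and miR-352 (-0.75). Without HFD 653, miR-152 (-0.79) and miR-494 (-0.78) were still the lowest, while miR-352 was at -0.60, place 142 of 150, and miR-216a was next after them at -0.76. The median over the 150 was 0.08. miR-26b, which the scaling left without a difference on the first design, is not among the 150. These values describe arrays that share slide, row and scaling.

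Markers of other cells were read beside miR-204. The acinar miRNA miR-216a had r = -0.61 with miR-204 over the same arrays, or -0.76 without HFD 653. The acinar miR-217 was not tested and has no r. The islet markers had 0.54 (miR-375), 0.29 (miR-7a) and 0.49 (miR-7b), or 0.73, 0.43 and 0.70 without HFD 653. The other markers tested had -0.48 (miR-214), -0.26 (miR-143), -0.21 (miR-126), 0.02 (miR-199a-3p), 0.03 (miR-150) and 0.47 (miR-223). Without HFD 653 these were, in the same order, -0.30, -0.28, -0.08, -0.09, -0.14 and -0.21. The summed signal of the 2 acinar markers on the arrays ran from 106.0 to 665.9 in HFD and from 21.0 to 622.6 in Control on the first design. The 4 leukocyte markers summed to 33.6 to 356.3 in HFD and 33.1 to 40.4 in Control, with miR-142-5p among them detected on no array. The 4 mesenchymal markers summed to 269.3 to 590.5 in HFD and 261.8 to 452.8 in Control, and the 2 endothelial ones to 350.2 to 613.0 in HFD and 389.0 to 501.9 in Control. Their part in the miR-204 level was not tested.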

How the data were processed

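Per the labels' protocols, 100 ng of islet total RNA from each rat was Cy3-labelled and hybridised to an Agilent miRNA array with 1 colour. Spot intensity was deposited as Agilent Feature Extraction 10.5.1.1 (first design) and 10.7.3.1 (second design) wrote it, per the file headers: background-subtracted, with no scaling between arrays. The authors also deposited log2 tables, found to equal log2 of the software's total signal plus 50 (first design) and log2 of the total where detected (second). The submitters' processing notes name RMA and Partek; what each was used for is not given in the sources used here.

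Spots without an outlier flag were averaged per probe, probes summed per miRNA, and each array scaled by its 75th percentile over 85 miRNAs detected on all 11 arrays. A floor at the 1st percentile of detected values, 10.3, was set before log2. No member spot was saturated. Design, slide and scan coincided, and design was the block. Tests used limma 3.58.1 in R 4.3.3, 2-sided, with Benjamini-Hochberg adjustment over 152 miRNAs. The fit was tested on simulated data. Member miRNAs, lists and rules were chosen with earlier results of these data known. Named miRNAs were the members, the 2 highest and 2 lowest of the insulin list and cell type markers. The 5 most and 3 least like miR-204 were named as well. miR-375 with its level and the cell type markers with their r were added after their values were seen. The normexp alternative used the median spot signal. The number of arrays limits the precision.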

Additional observations from a re-analysis of the deposited data

Results flagged for a closer look

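Each HFD or Control set of 4 first-design arrays was checked for 1 array far from the other 3. Of 46 such sets of values, 7 passed Dixon's criterion, where chance flags about 1 in 20, or 2.3. The sets are not independent, since the miR-211 signal is the sum of its own probes. Some miRNAs checked were also picked for their differences or their r. The 7 against 2.3 is therefore no measure of an excess over chance. Gap over range came to 0.959 for the scaled miR-211 signal in HFD, where HFD 653 read 267.8 and the others 7.59 to 18.3. By probe it was 0.969 for A_26_P00001474 (37.7 on HFD 653 against 0.636 to 1.79), 0.959 for A_26_P00001475 (66.2 against 2.13 to 4.75) and 0.989 for A_26_P00001476 (67.9 against 4.58 to 5.25). It was 0.869 for the SD of negative controls in HFD, again from HFD 653, at 12.9 against 2.26 to 3.65.

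miR-352, among the least like miR-204, had 0.844 in HFD, with 4.06 on HFD 653 against 4.90 to 5.06 on the log2 scale. miR-148b-3p had 0.837 in Control, with 5.35 on Control 602 against 6.45 to 6.67. miR-204 itself was not among these.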

How the results depend on the processing

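The miR-204 difference of 0.22 kept its sign and stayed past no threshold under 29 of 30 alternatives. Taking the 75th percentile from all shared miRNAs turned it to -0.0034, and leaving out single arrays gave 0.08 (HFD 653) to 0.33 (Control 615). The 2 probes alone and the slide row as a block were chosen after the data were seen. Since limma called 0 miRNAs, these p-values say nothing of stability. With no scaling it called 1, miR-150, and 0 with any single array left out. The interaction of diet and array design for miR-204, -0.11 as reported, was 0.42 with no scaling, 0.11 with scaling over all shared miRNAs and 0.45 in the authors' deposited tables. For miR-211 that interaction was -0.60, or 0.39 with no scaling, and the deposited tables allow none, since miR-211 is blank there for both second-design Control arrays. The miR-211 difference of 1.11 ran from 0.17 with the RMA-like summary to 1.43, and from 0.30 to 1.43 with single arrays left out. It has no value among miRNAs detected on all arrays. The correlation of the members, 0.75, was 0.33 with no scaling, 0.13 with scaling over all shared miRNAs and -0.22 to 0.84 with single arrays left out. The median of the insulin list, recomputed after the data were seen, ran from -0.17 to 0.13, and from -0.0052 to 0.08 with single arrays left out. The causes were not tested. No paired analysis was possible because the groups share no replicate number. Signal over background limits miR-211 and the second miR-204 probe, A_26_P00001464.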
